A study of Mus musculus with 6 samples.

Results

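The genes Hr, Cpz, Spon1, 1500015O10Rik, C1qtnf6, Gas1, Fstl1 and Ccdc80, were followed through single-cell RNA sequencing of mouse inguinal white adipose tissue (iWAT), a depot under the skin of the groin. They were chosen by their lower level in cells of aged mice, with no numeric threshold, and they are 8 of the 31053 genes listed. Every aged-against-young value of these genes below is therefore a description and carries no test. Temperature and cell population were not used in the choice, and these differences were tested.

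The cells came from 6 libraries of C57BL/6 male mice, 1 library for each of 2 ages and 3 temperature schedules. Young mice were 9 weeks old and aged mice 57 weeks old, and all were first held for 3 weeks at 30 °C. Thermoneutral mice (TN) then stayed at 30 °C for 2 more weeks, 3D mice spent the last 3 days of these 2 weeks at 6 °C, and 14D mice spent all 14 days at 6 °C. No group carried an engineered allele or received a drug, and all mice were housed singly in the last 2 weeks. Mice came from the National Institute of Aging or Jackson Laboratories, whose C57BL/6 substrains differ. The sources used here do not say which supplied a given library, so vendor, substrain and age cannot be told apart here. They also do not give the number of mice in a library. For stromal cell isolation the paper reports no pooling of mice except where stated, and it states none for these libraries. Each library may therefore come from 1 mouse. The lymph node was removed, and the stromal vascular cells were taken as the pellet after digestion, filtering and spinning, which leaves mature adipocytes behind. They were then sorted as live (DAPI-) cells and depleted of CD45+ immune cells, which removes most immune cells. With 1 library in each group there was no test within a temperature. In fits with age and temperature as terms, a p-value measures the spread between libraries left after both. That spread includes any difference in the cold response between the ages. In the comparison of populations, with library as a block, it measures the spread left after population and library.

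The libraries held 52068837 to 88508349 unique molecular identifiers (UMIs, counted RNA molecules). The aged 14D cold library stood apart, with a median of 2588 UMIs per barcode against 6232 to 8954 in the other 5, and it lost the most cells (10880 to 6910) when cells under 2000 UMIs were left out. Cells were gated on marker genes that include none of the 8 genes. This gave 21678 Dpp4+ fibroblasts, 17962 Icam1+ preadipocytes and 1783 Cd142+ fibroblasts, which together are the adipocyte progenitors (ASPCs), besides 3394 endothelial cells, 713 smooth muscle cells and pericytes, 96 Schwann cells and 225 immune cells as outgroups. Dpp4+ fibroblasts made up 24.3% of the aged TN cells and 38.0% to 50.7% of the cells of the other libraries. Between 30 and 44 barcodes were shared by any pair of libraries. The summed level of the 5 ASPC markers (Pdgfra, Dcn, Lum, Col1a1 and Col1a2), in counts per 1000000 UMIs (CPM), was itself lower in aged cells: it lay between 22720 and 27848 CPM in young and between 17748 and 20200 CPM in aged Dpp4+ fibroblasts, between 43618 and 49156 against 31426 and 36965 CPM in Cd142+ fibroblasts, and overlapped between the ages in Icam1+ preadipocytes. The 10 endothelial markers summed to at most 52.1 CPM, the 14 immune markers to at most 28.6 CPM and the 9 adipocyte markers to at most 120.3 CPM in any ASPC population. Red blood cell genes summed to between 4.02 and 145 CPM in young and between 129 and 612 CPM in aged Dpp4+ fibroblasts. The part of these marker levels in the results was not tested.

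ASPCs are the fibroblast-like cells of fat that make matrix, signal to their neighbours and give rise to adipocytes, in the cold also to heat-producing beige adipocytes. Dpp4+ fibroblasts sit in the connective tissue around the depot, Icam1+ preadipocytes lie closer to becoming adipocytes, and Cd142+ cells (Cd142 is the protein of F3) are a smaller group that has been described as restraining adipocyte formation. Most of the 8 genes encode secreted or surface proteins. Gas1 is a membrane-anchored co-receptor for Hedgehog ligands. Cpz is a secreted carboxypeptidase with a frizzled-like domain that can bind Wnt proteins. Fstl1, a relative of SPARC and follistatin, binds ligands of the bone morphogenetic protein family. C1qtnf6 (CTRP6) is a secreted protein of the C1q/TNF family to which adiponectin belongs. Spon1 (F-spondin) and Ccdc80 are matrix-associated proteins, the latter linked to adipocyte differentiation, and 1500015O10Rik (Ecrg4) encodes the precursor of a secreted peptide. Hr (hairless), by contrast, is a nuclear corepressor and histone demethylase known from the hair follicle.

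The genes do not lie together in the genome. In GENCODE on GRCm38 (mm10), Hr (ENSMUSG00000022096) spans chr14:70552212-70573548, Cpz (ENSMUSG00000036596) chr5:35502218-35525698, Spon1 (ENSMUSG00000038156) chr7:113765998-114043370 and 1500015O10Rik (ENSMUSG00000026051) chr1:43730602-43742578. C1qtnf6 (ENSMUSG00000022440) spans chr15:78523346-78531416, Gas1 (ENSMUSG00000052957) chr13:60174405-60177365, Fstl1 (ENSMUSG00000022816) chr16:37776873-37836514 and Ccdc80 (ENSMUSG00000022665) chr16:45093402-45128077. All are protein-coding, and Cpz, C1qtnf6 and Gas1 lie on the minus strand. Each of 1500015O10Rik, C1qtnf6 and Gas1 overlaps 1 noncoding gene on the opposite strand (Gm29155, Gm49490 and Gm48488).

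To show what stands before these genes, the 250 bases upstream of the start were read from RefSeq (GRCm38.p6), which gave a promoter for 5 of the 8 (Cpz, Gas1, C1qtnf6, Fstl1 and 1500015O10Rik under the name Ecrg4). The GC box GGGCGG, searched on both strands, stood in 4 of the 5, and in 32.7% of all 32851 promoters. The TATA box TATAAA stood in 0 of the 5 (12.4% of all) and CCAAT in 2 of the 5 (33.8% of all). With 5 sequences these counts are a description only. The 30-base windows with the GC boxes are given 5′ to 3′ on the strand of the gene, with the box in capitals, which reads CCGCCC where it lies on the other strand.
C1qtnf6 (chr15:78529701-78529730, minus strand): cccaggctggagGGGCGGgagcaggaggag
Cpz (chr5:35525843-35525872, minus strand): tgctgtctccacCCGCCCacaaatcaaagt
Fstl1 (chr16:37777009-37777038, plus strand): GGGCGGggaaggaggggtcttaagGGGCGG
Gas1 (chr13:60177662-60177691, minus strand): gtgagctgcccaCCGCCCtcccccactctg
The box of C1qtnf6 lies 67 bases before the RefSeq start and that of Cpz 234 bases before it. Fstl1 holds a pair of boxes, 46 and 22 bases before its start, and the box of Gas1 lies 144 bases before its start. The RefSeq starts of C1qtnf6, Cpz and Fstl1 lie inside the GENCODE spans given above.

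The levels by library and population are described first. For these values the UMIs of the gated cells of a library were summed and scaled to CPM. Over 72 pairs of libraries of the same temperature, gene and ASPC population, the aged library was lower in 70 and higher in 2. All 8 genes passed the filter on low counts in each population. The median of the fitted aged-minus-young log2 differences of the 8 genes was −1.80 for the Dpp4+, −1.06 for the Icam1+ and −1.05 for the Cd142+ cells. The median over all genes tested lay within 0.01 of 0 in each population, and 8.65% (Dpp4+), 6.60% (Icam1+) and 3.77% (Cd142+) of all genes tested were called lower in aged cells in the same fit (edgeR's quasi-likelihood F test, in which temperature was a covariate). The 3 aged libraries lay below the 3 young ones for 7 of the 8 genes in Dpp4+ fibroblasts, against 12.6% of all genes tested. The same held for 4 in Icam1+ preadipocytes (Hr, Spon1, 1500015O10Rik and C1qtnf6; 11.9% of all genes) and for 2 in Cd142+ fibroblasts (Cpz and C1qtnf6; 9.44% of all genes). Nothing is read from these counts, since the age difference chose the genes.

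Among the surface and signalling proteins, Gas1 in Dpp4+ fibroblasts stood at 596, 369 and 369 CPM in the young TN, 3D and 14D libraries and at 334, 194 and 181 CPM in the aged ones. The ages did not overlap, with means of 445 ± 131 against 236 ± 85.1 CPM (SD, n = 3 libraries an age). The fold from the edgeR fit, used for all folds between the ages here, was 1.90. In Icam1+ preadipocytes Gas1 was at 458, 311 and 396 CPM in young and 496, 249 and 298 CPM in aged cells, which overlapped, and the aged TN library was above the young one. Cd142+ fibroblasts held 744, 525 and 809.7 CPM in young and 601, 481 and 391 CPM in aged cells, which overlapped.

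Cpz was measured at 90.6, 68.1 and 122 CPM in young Dpp4+ fibroblasts and at 24.7, 22.8 and 32.3 CPM in aged ones, a fitted 3.45-fold difference without overlap. In Cd142+ fibroblasts it was at 157, 125 and 163 CPM against 34.4, 52.7 and 74.6 CPM, also without overlap. The lower Icam1+ level, 20.2, 12.3 and 22.1 CPM against 4.37, 4.25 and 13.3 CPM, overlapped through the aged 14D cold library.

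Fstl1 showed the smallest age difference of the 8 in Dpp4+ fibroblasts. Its values were 2383, 1943 and 2414 CPM in young and 1924, 1381 and 1663 CPM in aged cells, a fitted 1.36-fold difference, and the aged TN library lay just under the young 3D library. In Icam1+ preadipocytes the fitted log2 difference was −0.16 ± 0.08 (SE) and in Cd142+ fibroblasts −0.18 ± 0.10, with overlapping ages in both.

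C1qtnf6 was lower without overlap in all 3 populations. Dpp4+ fibroblasts held 109, 74.4 and 119 CPM in young and 36.3, 21.7 and 29.0 CPM in aged cells, a fitted 3.49-fold difference. Icam1+ preadipocytes held 174, 126 and 186 CPM against 111, 69.1 and 118 CPM (1.65-fold), and Cd142+ fibroblasts 193, 123 and 228 CPM against 84.4, 41.3 and 93.5 CPM (2.51-fold). No other of the 8 genes had separate ages in all 3 populations.

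Of the matrix proteins, Spon1 stood at 146, 75.0 and 105 CPM in young and at 53.4, 26.9 and 43.3 CPM in aged Icam1+ preadipocytes, a fitted 2.64-fold difference. In Dpp4+ fibroblasts it was at 19.8, 11.6 and 17.4 CPM against 4.57, 2.36 and 3.91 CPM (4.54-fold). The ages overlapped in Cd142+ fibroblasts, with 117, 53.9 and 66.5 CPM in young and 65.6, 39.4 and 32.2 CPM in aged cells.

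Ccdc80 was at 1551, 689 and 1207 CPM in young and at 695, 352 and 512 CPM in aged Dpp4+ fibroblasts. Its means were 1149 ± 434 and 519.6 ± 171 CPM (SD, n = 3; fitted 2.18-fold), but the aged TN library lay above the young 3D library. In Icam1+ preadipocytes it was at 1202, 617 and 929 CPM against 806, 561 and 772 CPM, and in Cd142+ fibroblasts at 1215, 592 and 928 CPM against 679, 447 and 643 CPM. In each population and at each age its order from high to low was TN, 14D, 3D.

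The values of 1500015O10Rik and Hr rest on few molecules. 1500015O10Rik gave 132, 54 and 165 UMIs in young and 10, 4 and 10 UMIs in aged Dpp4+ fibroblasts, or 3.45, 1.60 and 4.26 CPM against 0.634, 0.15 and 0.502 CPM. Its level was highest in Cd142+ fibroblasts, with 75.6, 9.25 and 48.6 CPM in young and 9.89, 9.53 and 7.86 CPM in aged cells, from 128, 24 and 111 UMIs against 19, 15 and 10. There the young 3D library lay within the range of the aged ones.

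Hr gave 313, 565 and 606 UMIs in young and 19, 43 and 32 UMIs in aged Dpp4+ fibroblasts. This is 8.18, 16.8 and 15.7 CPM against 1.21, 1.61 and 1.60 CPM, a fitted 9.28-fold difference and the widest of the 8 in this population. The endothelial cells held 0, 1.55 and 1.35 CPM of Hr in young and 0.506, 1.68 and 1.39 CPM in aged libraries, so aged Dpp4+ Hr was not above that level. Aged Dpp4+ levels of 1500015O10Rik and Spon1 also overlapped the endothelial ones, which reached 0.517 and 4.85 CPM. Icam1+ preadipocytes held 2.51, 6.59 and 7.41 CPM in young and 1.14, 0.88 and 2.21 CPM in aged cells. In Cd142+ fibroblasts Hr was seen in 6, 18 and 26 UMIs against 5, 2 and 5 UMIs, too few to give its level with any precision.

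**Figure D1:**
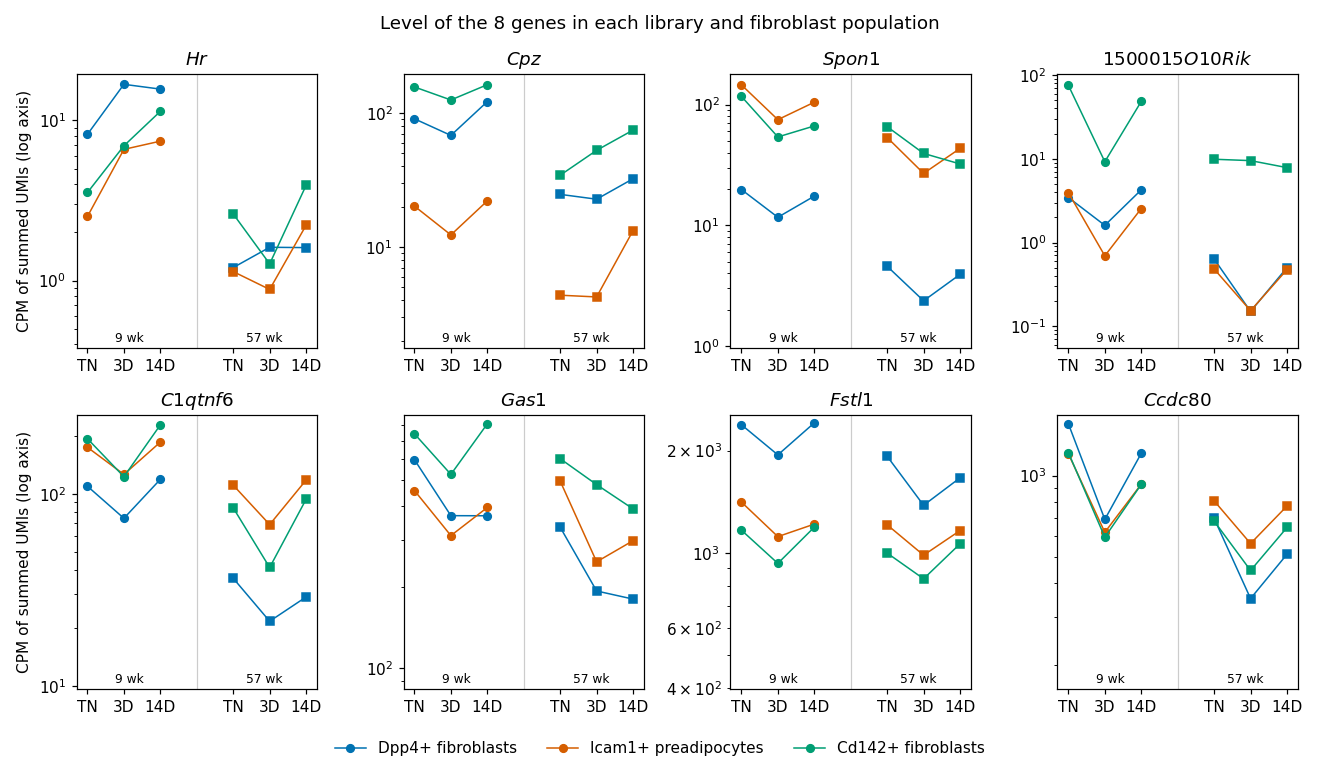
Level of each of the 8 genes in the 6 libraries (CPM, log axis) against temperature (TN, 3D, 14D), with circles for 9 weeks, squares for 57 weeks and 1 colour per ASPC population. The aged squares lie below the young circles of their colour in 70 of 72 pairs, and Ccdc80 and Spon1 lie lower at 3D than at TN at both ages.

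The cell populations are considered next, with the endothelial and immune cells as a reference for free RNA. At an equal depth of 2000 UMIs per cell, 0.0884% of the 3394 endothelial cells held a UMI of Hr, 0.206% one of Cpz, 0.236% one of Spon1 and 0.0589% one of 1500015O10Rik. For Fstl1 the endothelial share was 12.1%, for Ccdc80 6.63%, for Gas1 1.65% and for C1qtnf6 1.38%. None of the 225 immune cells held a UMI of Hr or of 1500015O10Rik, which allows a share of up to 1.33%. Before thinning, the median depth of the libraries was 3229 to 4093 UMIs in endothelial cells, 4200 to 7126 in immune cells and 7037 to 9754.5 in Dpp4+ fibroblasts.

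Smooth muscle cells and pericytes held several of the genes. Of these 713 cells, 46.6% had a UMI of Fstl1, 36.9% one of Gas1, 22.3% one of Ccdc80, 10.7% one of Spon1 and 8.98% one of C1qtnf6. Spon1 in these cells was at 57.0, 67.7 and 49.3 CPM in young and at 38.7, 66.2 and 56.9 CPM in aged libraries, so its ages overlapped outside the ASPCs. Ccdc80 was at 164, 119 and 127 CPM against 127, 172 and 148 CPM, with the aged mean the higher. C1qtnf6 was at 33.3, 90.3 and 84.5 CPM against 22.8, 39.2 and 22.8 CPM, which also overlapped. The share of all genes with separate ages is not given for cell classes outside the ASPCs, so the next count is a description. In CPM, ages were separate, with the aged libraries lower, for 3 genes outside the ASPCs. These were Hr in smooth muscle cells and pericytes (21.4, 12.3 and 11.7 against 4.96, 4.90 and 5.69 CPM, from 2 to 9 UMIs a library), and C1qtnf6 (8.57, 14.5 and 14.8 against 4.81, 2.95 and 7.62 CPM) and Gas1 (17.1, 25.3 and 20.2 against 6.83, 12.6 and 8.32 CPM) in endothelial cells. Each library gave only 81 to 256 smooth muscle cells and pericytes, and the differences between cell classes in the age difference were not tested.

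**Figure D2:**
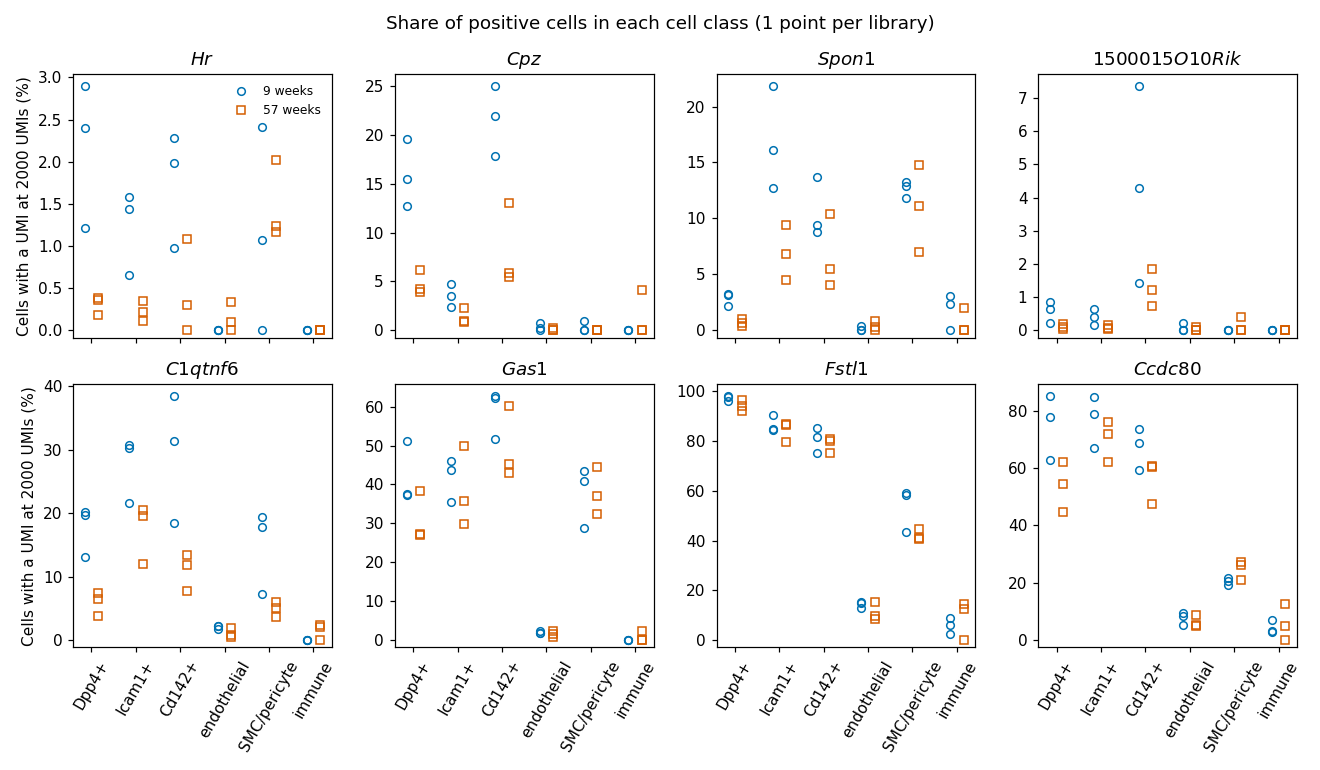
Share of cells with a UMI of each gene at 2000 UMIs per cell (percent) by cell class, with 1 point per library, blue circles for 9 weeks and orange squares for 57 weeks. Smooth muscle cells and pericytes hold Fstl1, Gas1, Ccdc80 and Spon1, endothelial and immune cells lie near 0 for most of the genes, and the highest 1500015O10Rik share is that of young TN Cd142+ fibroblasts (7.35%).

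The ASPC populations were then compared over the 18 sums of 3 populations in 6 libraries, with the library as a block (edgeR's quasi-likelihood F test, Benjamini-Hochberg adjusted over 14006 genes). Between Dpp4+ fibroblasts and Icam1+ preadipocytes, Cpz and Spon1 differed most and in opposite directions. Cpz was higher in the Dpp4+ cells, by 2.20 ± 0.12 on the log2 scale (SE, edgeR's adjusted p = 6.69e-12), and Spon1 was lower by 2.99 there (edgeR's log2 difference −2.99 ± 0.15, adjusted p = 2.83e-12). Hr (1.01 ± 0.19, edgeR's adjusted p = 9.47e-05) and Fstl1 (0.67 ± 0.06, edgeR's adjusted p = 1.46e-08) were higher in Dpp4+ fibroblasts, and C1qtnf6 (−1.23 ± 0.14, edgeR's adjusted p = 3.35e-07) was higher in Icam1+ preadipocytes. These 5 of 8 genes stand against 67.0% of all genes called in this comparison, so the count is no more than the background. The log2 differences of 1500015O10Rik (0.41), Gas1 (−0.21) and Ccdc80 (−0.12) did not pass the threshold of 0.05 (edgeR's adjusted p = 0.146, 0.133 and 0.345).

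In Cd142+ fibroblasts 1500015O10Rik stood out. Its log2 difference there was 4.22 ± 0.25 from Icam1+ preadipocytes and 3.81 ± 0.25 from Dpp4+ fibroblasts (edgeR's adjusted p = 7.66e-10 and 2.11e-10). Cpz was also highest in Cd142+ fibroblasts, by 2.98 ± 0.14 over Icam1+ preadipocytes and 0.79 ± 0.13 over Dpp4+ fibroblasts (edgeR's adjusted p = 3.44e-11 and 4.17e-05), and so was Gas1, by 0.63 ± 0.13 and 0.84 ± 0.13 (edgeR's adjusted p = 0.000959 and 1.64e-05). Fstl1 was lowest there, with log2 differences of −0.25 ± 0.06 and −0.92 ± 0.06 (edgeR's adjusted p = 0.00537 and 4.26e-10). Against Icam1+ preadipocytes 4 of the 8 genes were called (24.6% of all genes). With a gate on Dpp4, Icam1 or F3 alone 2 were called, for which the share of all genes is not given. Against Dpp4+ fibroblasts 6 of the 8 were called (49.4% of all genes), Spon1 (2.70 ± 0.19) and C1qtnf6 (1.02 ± 0.16) among them as higher (edgeR's adjusted p = 9.42e-10 and 3.2e-05). Ccdc80 was not called between any pair of ASPC populations. Cells were gated on other genes of these same cells, and the size of the Cd142+ gate depended on depth. In the young TN library 105 cells passed it when thinned to 1000 UMIs, 204 in the main gate and 687 unthinned. In the aged 14D cold library these counts were 148, 276 and 677. Under other settings with all libraries kept, 2 to 5 of the 8 were called against Icam1+ preadipocytes and 5 to 7 against Dpp4+ fibroblasts. The share of all genes is not given for these counts, and the part of the gate in the log2 differences was not tested.

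A lower summed level can come from fewer cells with a UMI or from fewer UMIs in each cell. To set the pair apart, the share of positive cells was taken at 2000 UMIs per cell in each library. Shares in Dpp4+ fibroblasts were 1.21% to 2.90% in young and 0.186% to 0.384% in aged libraries for Hr, 12.7% to 19.6% and 3.95% to 6.13% for Cpz, and 13.2% to 20.2% and 3.76% to 7.39% for C1qtnf6. For Cpz and C1qtnf6 these ranges lie above the endothelial shares given above. For Hr the endothelial share reached 0.340% in the aged 3D library (2 of 588 cells), within the range of aged Dpp4+ fibroblasts, so aged Hr was not told apart from background at this depth. For Spon1 the share in Icam1+ preadipocytes was 12.7% to 21.8% in young and 4.52% to 9.41% in aged libraries. The Gas1 share in Dpp4+ fibroblasts overlapped between the ages, at 37.4% to 51.0% and 27.1% to 38.2%. Fstl1 was seen in nearly every Dpp4+ cell, 96.2% to 97.9% in young and 91.8% to 96.3% in aged libraries, and Ccdc80 in 62.7% to 85.1% and 44.8% to 62.2%.

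At this depth the count per positive cell had room to move only in the abundant genes. In Dpp4+ fibroblasts a positive cell held on average 2.78 UMIs of Ccdc80 in young and 1.85 in aged libraries, 2.02 and 1.60 of Gas1, and 4.55 and 3.51 of Fstl1. For Hr (1.02 and 1.00), Spon1 (1.06 and 1.05), C1qtnf6 (1.13 and 1.05) and Cpz (1.18 and 1.10) nearly all positive cells held a single UMI at both ages. 1500015O10Rik in Cd142+ fibroblasts was the exception among scarce genes, with 1.58 UMIs per positive cell in young and 1.08 in aged libraries. It was highest in the young TN library, where 7.35% of 204 cells were positive with 2.27 UMIs each.

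For each gene, population and temperature, the aged share was set beside 2 values worked out from the young cells and the measured ratio of mean UMIs per cell. The first is the share if every positive cell had lost UMIs alike, and the second the share if the number of positive cells alone had fallen and each kept its UMIs. Of 72 comparisons at 2000 UMIs, the exact binomial 95% interval of the aged share held the first value alone in 23, the second alone in 0 and both in 45. It lay between them in 1 and above both in 1, and in 2 there was no drop. The intervals cover counting error only, and the error of the young values is not in them.

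Ccdc80, Gas1 and Fstl1 made up nearly all of the 23. Ccdc80 in Dpp4+ fibroblasts at TN went from 85.1% of young to 62.2% of aged cells (95% interval 60.1% to 64.2%), against 64.5% for UMIs lost alike and 38.9% for fewer cells. This is the 1 comparison between both values, though close to the first. Gas1 at TN went from 51.0% to 38.2% (36.1% to 40.3%), against 39.3% and 31.3%. Fstl1 at 3D went from 96.2% to 91.8% (90.9% to 92.7%), against 91.5% and 69.0%. In these comparisons the aged share lay close to that of UMIs lost alike.

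For Hr, Cpz and Spon1 all 9 comparisons held both values at 2000 UMIs, so the 2 cases could not be set apart at this depth. The shares were therefore also taken at 6000 UMIs in the gated cells that deep, a depth chosen after seeing the data, which kept 30.8% to 91.6% of the gated cells of an ASPC population in a library. There the first value alone was held in 23 of the 72, the second alone in 3 and both in 33, with 6 between, 5 above both and 2 without a drop. For Fstl1 the first value alone was held in 5 of 9 comparisons (7 at 2000 UMIs), for Gas1 in 6 (7) and for Ccdc80 in 6 (8). The 5 above both were Fstl1 in Icam1+ preadipocytes at all 3 temperatures, Gas1 in Dpp4+ fibroblasts at 3D and Ccdc80 in Cd142+ fibroblasts at TN. Ccdc80 in Dpp4+ fibroblasts lay between both at TN and 14D. C1qtnf6 now held the first value alone in 6 of 9 comparisons: in Icam1+ preadipocytes at TN it went from 61.7% to 48.7% (46.9% to 50.5%), against 48.4% for UMIs lost alike and 41.7% for fewer cells. Spon1 in Icam1+ preadipocytes at TN went from 45.4% to 22.4% (20.9% to 23.9%) and lay between 25.5% and 18.2%. Cpz in Dpp4+ fibroblasts at 14D went from 42.7% to 14.5% (13.0% to 16.3%) and lay between 16.5% and 11.7%. The 3 comparisons that held the second value alone were those of Spon1 in Icam1+ preadipocytes at 14D and in Cd142+ fibroblasts at TN, and of Cpz in Cd142+ fibroblasts at 3D. For Hr all 9 still held both. In the endothelial cells of that depth, 33 to 94 a library, 8.45% to 10.7% had a UMI of C1qtnf6 in young and 1.35% to 3.03% in aged libraries. At most 9.09% had one of Spon1. Endothelial shares were higher for the abundant genes, at 27.0% to 43.7% for Fstl1, 12.8% to 30.3% for Ccdc80 and 3.03% to 15.5% for Gas1. The part of free RNA in the ASPC shares was not tested.

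**Figure D3:**
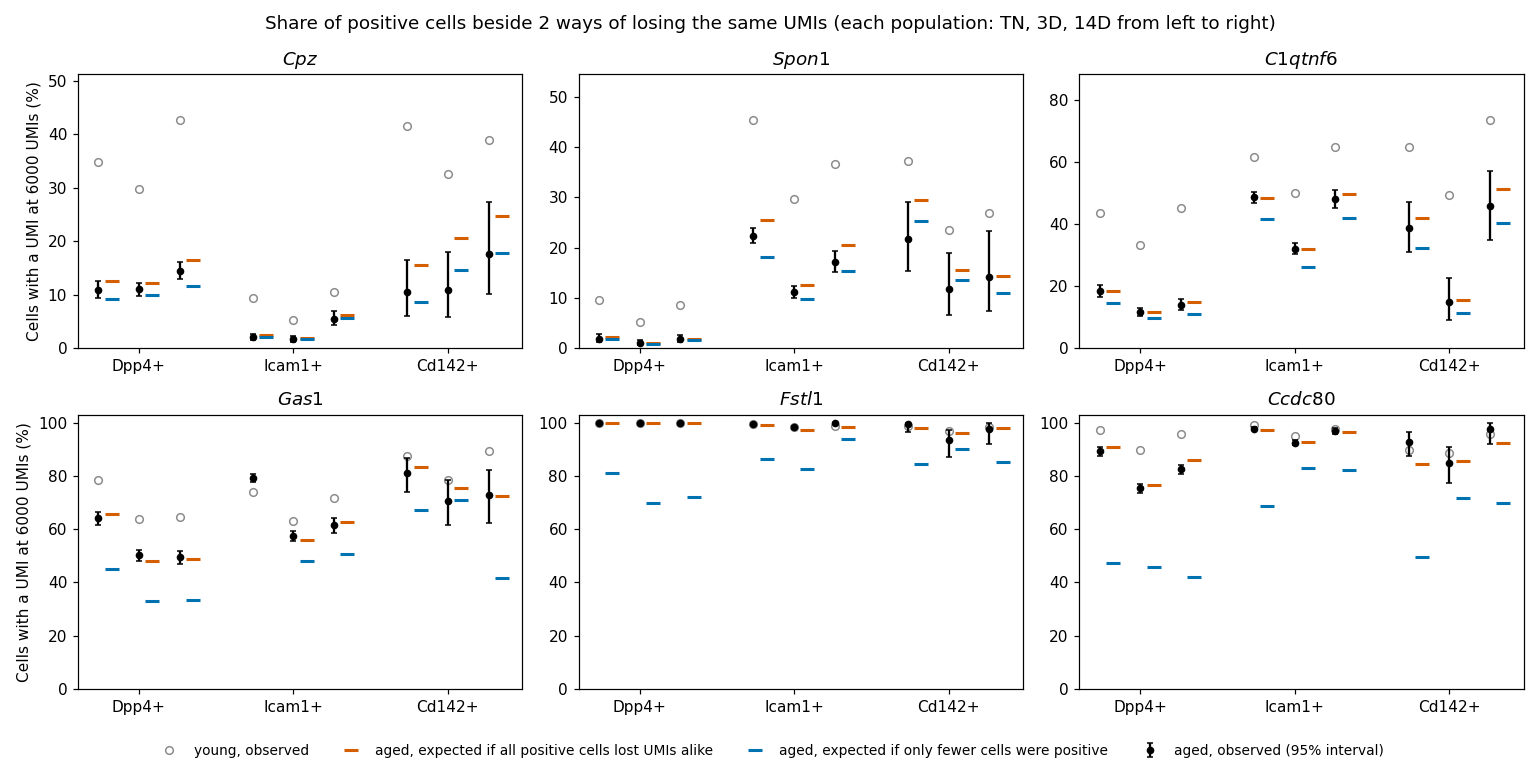
Share of cells with a UMI at 6000 UMIs per cell (percent) for 6 of the genes, by ASPC population and temperature, with open grey points for young cells and black points with exact binomial 95% intervals for aged cells. Orange dashes mark the share if all positive cells lost UMIs alike and blue dashes the share if only fewer cells were positive; for Spon1 in Icam1+ preadipocytes the aged points lie under the orange dash.

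Temperature was tested with age as a term, over both cold schedules together (edgeR's quasi-likelihood F test, Benjamini-Hochberg adjusted over all genes tested). Of the 8 genes, 7 were called in Dpp4+, 5 in Icam1+ and 4 in Cd142+ cells, against 6.05%, 6.22% and 3.13% of all genes tested. The change was mainly a fall after 3 days of cold. The 3D library lay below the TN library at both ages in 7 of the 8 genes in Dpp4+ fibroblasts (35.1% of all genes), 7 in Icam1+ preadipocytes (35.0% of all genes) and 6 in Cd142+ fibroblasts (29.1% of all genes). The median 3D-minus-TN log2 difference of the 8 genes was −0.69, −0.66 and −0.60 in these populations, and the median 14D-minus-TN difference −0.08, −0.18 and −0.07. Over all genes tested both medians lay within 0.01 of 0.

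Ccdc80 fell in all 3 populations. Its 3D-minus-TN log2 difference was −1.08 ± 0.09 (SE) in the Dpp4+, −0.74 ± 0.12 in the Icam1+ and −0.83 ± 0.13 in the Cd142+ population (edgeR's adjusted p = 0.00141, 0.0148 and 2.96e-05). After 14 days the differences from TN were −0.40 ± 0.08, −0.22 ± 0.11 and −0.24 ± 0.12.

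Spon1 and 1500015O10Rik also fell at 3D in each population. Spon1 changed by −0.81 ± 0.11, −0.97 ± 0.08 and −0.97 ± 0.16 on the log2 scale (edgeR's adjusted p = 0.00958, 0.00137 and 2.36e-05), and was still at −0.19, −0.40 and −0.87 at 14D. 1500015O10Rik changed by −1.22 ± 0.26, −2.32 ± 0.34 and −2.23 ± 0.33 (edgeR's adjusted p = 0.0259, 0.0122 and 1.77e-05). The Dpp4+ and Cd142+ values rest on the few UMIs given above. Icam1+ preadipocytes gave 105, 22 and 66 UMIs of it in young and 14, 4 and 6 UMIs in aged libraries. The aged Icam1+ level, 0.482, 0.153 and 0.474 CPM, was not above the highest endothelial one of 0.517 CPM. In Cd142+ fibroblasts the fall of 1500015O10Rik was that of the young libraries (75.6 to 9.25 CPM), while the aged ones stood at 9.89 and 9.53 CPM.

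C1qtnf6 fell at 3D and was back near the TN level at 14D. The 3D difference was −0.63 ± 0.10, −0.57 ± 0.08 and −0.79 ± 0.14, and the 14D difference −0.06 ± 0.10, 0.09 ± 0.08 and 0.20 ± 0.14 (edgeR's adjusted p for both = 0.0138, 0.00513 and 6.31e-06). Gas1, in contrast, stayed down in Dpp4+ fibroblasts, with −0.74 ± 0.07 at 3D and −0.79 ± 0.07 at 14D (edgeR's adjusted p = 0.00153). It also fell among Icam1+ cells (3D-minus-TN log2 −0.78 ± 0.12, edgeR's adjusted p = 0.0146), and its differences in Cd142+ fibroblasts, −0.41 ± 0.14 and −0.21 ± 0.14, were not called (edgeR's adjusted p = 0.237).

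Hr went the other way in Dpp4+ fibroblasts. There it rose by 0.95 ± 0.15 at 3D and 0.87 ± 0.15 at 14D on the log2 scale (edgeR's adjusted p = 0.0134). From TN to 3D it went from 8.18 to 16.8 CPM in young and from 1.21 to 1.61 CPM in aged libraries. These are log2 differences of 1.04 and 0.42, with the aged levels at the endothelial level. Its values in Icam1+ preadipocytes (0.85 ± 0.33 and 1.31 ± 0.34) and Cd142+ fibroblasts (0.40 ± 0.59 and 1.25 ± 0.54) did not pass (edgeR's adjusted p = 0.0988 and 0.421), and the first 3D value was −0.18 without the young 3D cold library. Cpz in Dpp4+ fibroblasts moved both ways, −0.29 ± 0.09 at 3D and 0.41 ± 0.09 at 14D (edgeR's adjusted p = 0.00774), and was called in neither other population, where its 14D values were 0.71 ± 0.26 and 0.41 ± 0.16 (edgeR's adjusted p = 0.0615 and 0.227). Fstl1 was called in none of the 3, with 3D differences of −0.39 ± 0.09, −0.32 ± 0.10 and −0.29 ± 0.12 (edgeR's adjusted p = 0.055, 0.158 and 0.207).

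Several of these calls were lost when 1 library was left out. Such a fit rests on fewer libraries, and the share of all genes called in it is not given here. A lost call is therefore not read as particular to these genes. Without the young 3D cold library, Hr, Spon1, 1500015O10Rik and C1qtnf6 lost their calls in Dpp4+ fibroblasts, and 1500015O10Rik and Ccdc80 theirs in Cd142+ fibroblasts. Without the young TN library Hr lost its call in Dpp4+ fibroblasts, and Spon1 and 1500015O10Rik lost theirs in Cd142+ fibroblasts. 1500015O10Rik and C1qtnf6 also lost their Dpp4+ calls when the aged 3D cold library was left out, and 1500015O10Rik and Ccdc80 their Icam1+ calls when the young 3D cold library was. Depth and gate mattered too. 1500015O10Rik lost its Icam1+ call at 1000 UMIs and unthinned, and its Dpp4+ call with the gate on Dpp4, Icam1 or F3 alone. In Cd142+ fibroblasts Spon1 and C1qtnf6 lost their calls at 1000 UMIs, and C1qtnf6 also with that gate. In Cd142+ fibroblasts DESeq2 gave an adjusted p for 3 of the 8 genes and called 1 of them, Ccdc80 (adjusted p = 7.44e-05). For Spon1, C1qtnf6 and 1500015O10Rik its adjusted p was not given, and its unadjusted p over all 6 libraries was 0.00132, 5.33e-05 and 0.444. Among the genes not called, Fstl1 in Dpp4+ fibroblasts was called under 8 of 16 alternatives and Cpz in Icam1+ preadipocytes under 7 of 16. With no age term edgeR called 0 of the 8 in each population, and 0, 2 and 2 genes had an unadjusted p under 0.05 in Dpp4+, Icam1+ and Cd142+ cells. The share of all genes called in that fit is not given here, so these counts are not read as a result about the 8 genes. The genes were chosen for an age difference, and the temperature test divides by the spread that remains after age in the same 6 libraries, and the part of the choice in this count was not tested. The ASPC markers moved in the same direction, at 22720 CPM in the young 3D library against 27848 and 27047 CPM at TN and 14D in Dpp4+ fibroblasts, and 17748 CPM against 20200 and 19149 CPM in the aged ones. Library preparation and temperature cannot be told apart, since each schedule had 1 library an age.

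**Figure D4:**
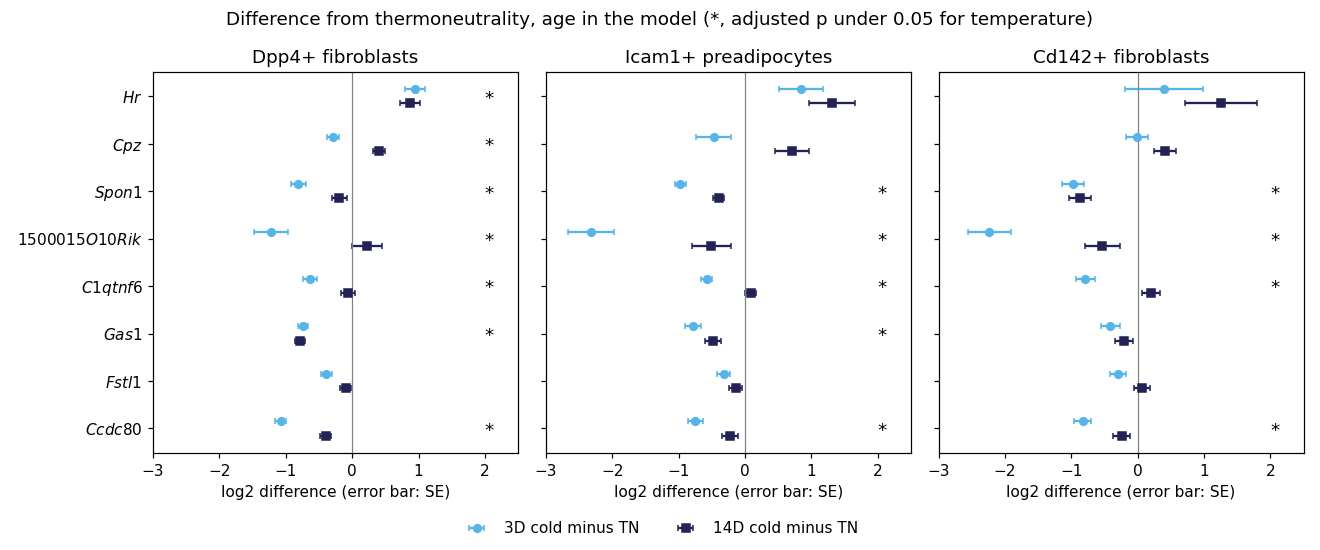
Differences from TN of the 8 genes on the log2 scale (3D and 14D, points with SE bars) in the 3 ASPC populations, from edgeR fits with age as a term; a star marks an adjusted p under 0.05. Points at 3D lie below 0 for all genes but Hr, Cpz in Cd142+ fibroblasts lying at −0.01, and Gas1 in Dpp4+ fibroblasts remains below 0 at 14D.

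Relatives of the 8 genes were then read from lists of their families and pathways. The lists follow families and pathways but were drawn up with earlier results of these data known, so their tests (edgeR's quasi-likelihood F test, temperature as a covariate) are not independent evidence of direction. Over all genes tested, 8.65% were called lower and 8.12% higher in Dpp4+, 6.60% and 7.69% in Icam1+, and 3.77% and 4.49% in Cd142+ cells, which is the background for each count below. The SPARC and follistatin family had the most calls of any list in Dpp4+ fibroblasts, 5 of 8 tested genes lower and 2 higher, against 2 and 2 of 7 in Icam1+ preadipocytes and 2 and 2 of 6 in Cd142+ fibroblasts. The median log2 differences were −0.57, −0.07 and −0.23, beside medians within 0.01 of 0 over all genes tested. Sparc, a collagen-binding matrix protein, fell from 8524 ± 2967 CPM in young to 2478 ± 613 CPM in aged Dpp4+ fibroblasts (SD, n = 3; log2 −1.74 ± 0.09, edgeR's adjusted p = 3.91e-06). It was also lower in Icam1+ preadipocytes (−0.52 ± 0.14, edgeR's adjusted p = 0.0355) and in Cd142+ fibroblasts (−1.35 ± 0.11, edgeR's adjusted p = 4.97e-14). Its relative Sparcl1 rose, by 1.01 ± 0.06, 0.81 ± 0.08 and 1.07 ± 0.10 (edgeR's adjusted p = 9.74e-06, 0.000382 and 1.55e-11). Sparcl1 is one of the genes of the Icam1+ gate.

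Spondins and other genes with thrombospondin type 1 repeats, the list of Spon1, had 4 lower and 2 higher of 10 in Dpp4+ fibroblasts, 2 and 2 of 10 in Icam1+ preadipocytes and 1 and 2 of 8 in Cd142+ fibroblasts. Spon2 fell in each, by 1.06, 0.69 and 0.76 on the log2 scale (edgeR's adjusted p = 3.27e-05, 0.000341 and 0.00196), and Thbs2 rose by 1.52 ± 0.13 in Cd142+ fibroblasts (edgeR's adjusted p = 6.88e-13). In the family of Ccdc80, Srpx fell in all 3 populations by 0.63, 0.59 and 0.75 (edgeR's adjusted p = 8.98e-05, 0.000811 and 2.24e-07), and the list's 2 genes were both called lower in Dpp4+ fibroblasts.

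The Hedgehog pathway, in which Gas1 acts, was mixed. In Dpp4+ fibroblasts 3 of 10 tested genes were lower and 1 higher, in Icam1+ preadipocytes 0 and 3 of 11, and in Cd142+ fibroblasts 2 and 0 of 11, with median log2 differences of −0.16, −0.06 and −0.14. At an unadjusted p under 0.05, edgeR found 2 lower Hedgehog genes in Icam1+ preadipocytes and 1 higher in Cd142+ fibroblasts.

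Of the C1q/TNF family edgeR called 0 of the 10 tested genes for age in Dpp4+ fibroblasts, where 1 was lower and 1 higher at an unadjusted p under 0.05, and 3 lower and 1 higher of 11 were in Icam1+ preadipocytes. C1qtnf2 fell in Cd142+ fibroblasts by 0.72 on the log2 scale (edgeR's adjusted p = 0.0112), the 1 call of 6 tested there. Carboxypeptidases of the family of Cpz had 3 lower and 1 higher of 6 in Dpp4+ fibroblasts, 0 and 1 of 6 in Icam1+ preadipocytes and 1 and 1 of 5 in Cd142+ fibroblasts, with 1 lower in Icam1+ preadipocytes at an unadjusted p under 0.05. Cpxm1 was at 238 ± 72.7 CPM in young and 141 ± 43.8 CPM in aged Dpp4+ fibroblasts (log2 −0.75 ± 0.06, edgeR's adjusted p = 7.32e-05). Among partners and relatives of Hr, 1 was lower and 1 higher of 11 in Dpp4+ fibroblasts, 0 and 4 of 10 in Icam1+ preadipocytes and 0 and 1 of 10 in Cd142+ fibroblasts, with 0 lower at an unadjusted p under 0.05 in the last pair of populations. Rorb, a nuclear receptor, rose in each by 0.45 ± 0.06, 1.00 ± 0.09 and 2.10 ± 0.52 (edgeR's adjusted p = 0.000768, 0.000212 and 0.00495), the last from 1.84 ± 1.57 to 7.78 ± 3.51 CPM.

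The genes whose level over the 18 sums was most like each of the 8 were named by Pearson's r of log2 CPM, among 5547 genes with a mean of at least 20 CPM. The 18 sums come from only 6 libraries and 3 populations, so the points share libraries, r mixes differences between populations, ages and temperatures, and it is a description. C1qtnf6 was most like Sparc (r = 0.98) and Col3a1 (0.98), and Fstl1 most like Fbn1 (0.97) and Loxl1 (0.96), all 4 matrix or matrix-processing genes. Fbn1 is also a gene of the Dpp4+ gate. Spon1 was most like Igsf10 (0.96) and Eva1b (0.96), Cpz like Man2a1 (0.94) and Gpc3 (0.92), and Gas1 like H1f0 (0.92) and Ltbp3 (0.89). 1500015O10Rik was most like Ssr4 (0.92) and Washc3 (0.91), Ccdc80 like Efnb1 (0.88) and Cops9 (0.85), and Hr like Stub1 (0.87) and Adamts2 (0.85). Among the 8 themselves, r over the 18 sums was highest between Spon1 and C1qtnf6 (0.86) and between 1500015O10Rik and Gas1 (0.81), and lowest between Spon1 and Fstl1 (−0.50).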

How the data were processed

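Counts were deposited by the authors as 10x gene-by-barcode matrices of raw UMIs, 1 per library, made with Cell Ranger on mm10; Seurat and R 4.1.1 are named for later steps. Barcodes with over 200 genes and within 3 median absolute deviations per library were kept (57326), and of these the 53037 with at least 2000 UMIs. Each cell was thinned to 2000 UMIs and gated on marker lists. No doublet caller was run, and cells with markers of another lineage were left out. UMIs were summed per library and population and fitted across all genes with edgeR 4.0.16 (R 4.3.3; TMM factors, filterByExpr, quasi-likelihood F test, Benjamini-Hochberg, threshold 0.05). Tests on simulated data recovered 75.5% to 96.5% of 2-fold changes for age and temperature, with 1 to 11 false calls a fit. The simulation changed no gene with few expected UMIs, used 1 set spread for all genes and gave each gene the same change at both ages or at all temperatures. Recovery for scarce genes, or for a cold response that differs between the ages, was not tested. The genes named are the 8, the 2 most alike to each at a mean of at least 20 CPM, and list genes called for age with 1 sign in all 3 populations or with the largest change in a list. A gene named by this rule is not reported here. The 8 genes and all lists were chosen with earlier results of these data known. The gate rule was chosen after marker values were seen, without looking at the 8 genes.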

Additional observations from a re-analysis of the deposited data

Results flagged for a closer look

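In 7 cases the cold response went opposite ways in the young and the aged libraries, and in 2 the age difference of 1 temperature went against the other temperatures. None of these differences was tested, since each rests on 1 library a group. In Dpp4+ fibroblasts the 14D-minus-TN log2 difference of 1500015O10Rik was 0.31 in young and −0.34 in aged libraries, that of C1qtnf6 0.12 and −0.32, and that of Fstl1 0.018 and −0.21. In Icam1+ preadipocytes the 3D-minus-TN difference of Hr was 1.39 in young and −0.37 in aged libraries, and in Cd142+ fibroblasts 0.97 and −1.04, the latter from 2 to 18 UMIs. Cpz in Cd142+ fibroblasts was lower at 3D than at TN in young (−0.32) and higher in aged libraries (0.62). Gas1 in Cd142+ fibroblasts was higher at 14D than at TN in young (0.12) and lower in aged libraries (−0.62). Gas1 in Icam1+ preadipocytes was higher in aged than young cells at TN by 0.12, and 1500015O10Rik in Cd142+ fibroblasts was higher in aged cells at 3D by 0.043.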

How the results depend on the processing

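The aged-minus-young log2 difference kept its sign for each of the 8 genes in each population under the alternatives run (DESeq2, other factors, no filter, no temperature term, other depths and gates, and each library left out). The median over the 8 genes ranged over left-out libraries from −1.85 to −1.70 in Dpp4+ fibroblasts, −1.11 to −0.94 in Icam1+ preadipocytes and −1.01 to −0.96 in Cd142+ fibroblasts, and was −0.71 in the last with cells thinned to 1000 UMIs. The count of genes called for temperature was 0 in all 3 populations with no age term, given without the share of all genes called in that fit. Over left-out libraries this count moved in each population, and it was lowest in Dpp4+ and Cd142+ fibroblasts without young 3D cold. Those fits leave 1 library at a temperature, so their counts are not given. The share of all genes called is also not given for the counts that follow, which are not read as a result about the 8 genes. In Cd142+ fibroblasts 2 genes were called for temperature at 1000 UMIs, and 1 of the 3 genes to which DESeq2 gave an adjusted p. With the 1-marker gate 2 genes were called between Cd142+ fibroblasts and Icam1+ preadipocytes. Over left-out libraries the pairs gave 5 to 7, 4 and 6 to 7 called genes, and the 24 mean shares of positive cells were lower in aged cells in 23 to 24. Under the other depths, cell limits and gates these shares were lower in aged cells in 22 to 24.

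Some differences changed sign. For 14D minus TN, 1500015O10Rik in Dpp4+ fibroblasts came to −0.033 with the 1-marker gate and over left-out libraries to −0.42 (young TN) up to 0.32, with −0.04 for young 14D cold. In Icam1+ preadipocytes it came to 0.081 at 1000 UMIs and 0.17 unthinned, and over left-out libraries to −0.64 up to 0.061 (young TN). In Cd142+ fibroblasts it came to 0.31 with the 1-marker gate, and to 0.57 when young TN was left out. C1qtnf6 in Dpp4+ fibroblasts came to 0.019 with no age term and over left-out libraries to −0.27 up to 0.079 (aged 14D cold; 0.07 for aged TN), and in Cd142+ fibroblasts to −0.061 with the 1-marker gate. Gas1 in Cd142+ fibroblasts ranged from −0.67 to 0.17 (aged 14D cold left out). For 3D minus TN, Hr in Icam1+ preadipocytes ranged from −0.18 (young 3D cold left out) to 1.27 and Cpz there from −0.87 to 0.22 (young TN left out). Cpz in Cd142+ fibroblasts ranged from −0.34 to 0.66 (young TN left out) and was 0.22 unthinned. The cause was not tested. No paired analysis was possible because each group held 1 library with the same replicate number, apart from the fits above with age, temperature or library as a term. Depth limits the scarce genes: aged Dpp4+ fibroblasts gave 4 to 10 UMIs of 1500015O10Rik a library.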
